A study of Mus musculus with 11 samples.

Results

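The genes described here are the glutamate receptors, glutamate transporters and postsynaptic scaffolds of the mouse cortex, 31 of the 22377 genes in the expression table. They were chosen by name, with a lower limit of 0.5 CPM on the mean level, where CPM are tag counts scaled to a common library total. All 31 were found and none has a duplicated symbol. The lowest, Grin2d, averaged 6.82 CPM, so the limit removed no gene. They comprise 16 subunits of ionotropic receptors, 6 metabotropic receptors, 3 transporters, 5 scaffolds and Cnih2.

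Glutamate is the main excitatory transmitter of the cortex. Vesicular transporters load it into synaptic vesicles, AMPA and NMDA receptors carry the fast and the calcium-permeable currents of the postsynaptic neuron, kainate and metabotropic receptors tune release and excitability, and scaffolds such as PSD-95, Shank and Homer anchor the receptors. After a stroke glutamate is released in excess, and the balance of excitation and inhibition in the surviving cortex bears on later seizures.

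The study made a small stroke in the left parietal cortex of male C57BL/6N mice by photothrombosis, in which light activates the injected dye rose bengal and clots the vessels beneath. It measured the whole cerebral cortex by CAGE, which counts tags at the capped 5′ ends of transcripts. Levetiracetam (LEV), a medicine against seizures whose target is SV2A of synaptic vesicles, was given in drinking water at 5 mg/mL, per the design text. There are 11 libraries, 1 for each group. Both hemispheres, infarcted and non-infarcted, were sampled at 7 d with LEV, 7 d without LEV, 1 month (1 m) with LEV, 1 m without LEV and 2 months (2 m) after 2 weeks of LEV withdrawal. The last library is the cortex of naive mice, which the labels call untreated controls. The design text names mice of 8 to 10 and of 65 to 85 weeks but the labels give no age per library, so age and group cannot be told apart. It also starts LEV 1 month after the stroke, for 2 weeks and with 1 week of withdrawal, which differs from the labels followed here. The labels do not say how many mice a library pools or whether both sides come from the same mice, so p-values describe the spread between these libraries.

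Library totals ran from 12928291 to 21000367 tags, of which 92.3% to 97.3% lay in the listed genes. Nrgn, a marker of excitatory cortical neurons, stood between 1605 and 2473 CPM in every library. Stxbp3 was at 17.9 to 22.3 CPM in the naive library and the 4 libraries at 1 m, but at 2.82 to 6.73 CPM in the 4 at 7 d and the 2 at 2 m. The choroid plexus gene Ttr reached 349.7 CPM in the naive library and 195.3 CPM in the non-infarcted library at 1 m with LEV, against 9.79 to 24.7 CPM elsewhere. Both genes were chosen after their values were seen, and what part these differences have in the results below was not tested. In whole cortex, fewer cells of a type and less RNA per cell cannot be told apart.

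A CAGE tag marks 1 capped end whatever the transcript's length, so CPM levels of different genes can be set side by side. Slc17a7, which encodes the vesicular transporter VGLUT1 of cortical glutamatergic neurons, was the highest on average at 840.2 CPM (range over the 11 libraries 481.0 to 1738). Gria2, the AMPA subunit that limits calcium entry, followed at 675.2 CPM (560.4 to 846.5). The ranges of these 2 genes overlap, and Gria2 lay above every gene below it in all libraries. Next, Gria1 (285.4 CPM), Dlg4 (275.1), Cnih2 (263.4), Gria3 (256.5), Grin2b (254.0) and Grin1 (237.0) had overlapping ranges. Shank1 (192.4 CPM), Grin2a (148.5), Homer1 (129.8), Grm3 (110.9), Grik5 (103.9), Gria4 (103.7) and Shank3 (101.4) came next, followed by Grm5 (97.9), Shank2 (87.4), Grm7 (84.7), Slc1a1 (81.3), Grik2 (57.2) and Grid1 (48.4). The lowest were Grik3 (35.6 CPM), Grin2c (34.7), Grik4 (29.4), Grm2 (27.0), Grm8 (21.5), Grin3a (17.8), Slc17a6 (11.9), Grik1 (9.43), Grm4 (9.36) and Grin2d (6.82), and, apart from the step below Gria2, each pair of neighbours in the whole order has overlapping ranges.

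Because CAGE tags begin at promoters, the sequence just before the start site is shown for 4 genes: Slc17a7, Cnih2 and Grik3, 3 of the 4 called higher at 1 m than at 7 d on both sides, and Grin1, which was low in 1 library. For the other called gene, Grid1, none was matched. The sequences are the 250 bases before the start in RefSeq's mouse annotation (GRCm38.p6), 5′ to 3′ on the gene's strand, with matches to the GC box GGGCGG on either strand in capitals. The Slc17a7 stretch is chr7:45163671-45163920 on the plus strand with 3 matches, Cnih2 is chr19:5098522-5098771 on the minus strand with 3, Grik3 is chr4:125490446-125490695 on the plus strand with 6, and Grin1 is chr2:25319188-25319437 on the minus strand with 0.
Slc17a7: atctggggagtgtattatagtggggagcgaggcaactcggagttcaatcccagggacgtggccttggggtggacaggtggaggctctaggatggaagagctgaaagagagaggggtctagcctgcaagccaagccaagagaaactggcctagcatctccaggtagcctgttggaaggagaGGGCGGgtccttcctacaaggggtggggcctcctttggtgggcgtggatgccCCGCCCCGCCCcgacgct
Cnih2: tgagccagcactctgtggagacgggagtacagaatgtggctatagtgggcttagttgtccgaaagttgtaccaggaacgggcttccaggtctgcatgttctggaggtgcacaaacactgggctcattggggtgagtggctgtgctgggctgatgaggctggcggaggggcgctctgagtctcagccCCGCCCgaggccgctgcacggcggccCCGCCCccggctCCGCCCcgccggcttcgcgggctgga
Grik3: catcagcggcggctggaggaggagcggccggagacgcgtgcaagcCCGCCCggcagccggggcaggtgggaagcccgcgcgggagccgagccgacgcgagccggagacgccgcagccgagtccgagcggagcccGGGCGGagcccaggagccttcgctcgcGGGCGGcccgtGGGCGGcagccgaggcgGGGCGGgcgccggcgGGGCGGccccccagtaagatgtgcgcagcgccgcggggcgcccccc
Grin1: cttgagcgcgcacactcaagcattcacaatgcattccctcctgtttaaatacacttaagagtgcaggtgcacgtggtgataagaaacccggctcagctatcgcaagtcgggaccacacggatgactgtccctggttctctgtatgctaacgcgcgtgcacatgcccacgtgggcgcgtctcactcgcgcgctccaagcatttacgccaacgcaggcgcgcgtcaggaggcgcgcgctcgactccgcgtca

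Of the 31 genes, 20 matched the RefSeq promoter table, with 27 windows of 250 bases. The GC box was found in 15 of the 27 windows (55.6%), against 32.7% of all 32851 mouse windows of that length. TATAAA was in 0 of 27, against 12.4% of all windows, and the cyclic AMP response element TGACGTCA was in 0, against 1.55%. CAGCACC and GGACAGC, which form parts of the RE1 element bound by the repressor REST, were in 1 and 2 windows (3.70% and 7.41%), against 5.73% and 5.28%. The median GC content was 62.4% over the gene windows and 52.4% over all windows. These matches describe letters in annotated windows. Which start sites the tags used was not analysed here.

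Summed over a family, the 4 AMPA subunits had 1085 to 1442 CPM in the infarcted libraries, 1196 to 1604 CPM in the non-infarcted libraries and 1308 CPM in naive cortex. The 6 NMDA subunits had 565.3 to 735.8 CPM in the infarcted libraries, 549.1 to 822.0 CPM in the non-infarcted libraries and 756.9 CPM in naive cortex. The 5 scaffolds had 628.1 to 858.7 CPM, 807.8 to 955.6 CPM and 734.3 CPM in the same order of groups. The ranges of the 2 sides overlap in all 3 families.

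The make-up was steady in some families and varied in others. Gria2 supplied 49.2% to 52.8% of the tags of the 4 AMPA subunits in every library. Slc17a7 supplied 97.7% to 99.3% of the tags of the 2 vesicular transporters among the 31 genes, the rest being Slc17a6 (VGLUT2), also a marker of the thalamus. Slc17a8, a vesicular glutamate transporter outside the 31, had 1.57 to 3.06 CPM and is left out of this share. In the kainate family Grik5 supplied 38.9% to 50.9%, Grik2 19.2% to 30.8% and Grik3 10.8% to 21.6%. Among the GluN2 subunits of the NMDA receptor, Grin2b supplied 51.0% to 62.2% and Grin2a 29.0% to 38.3%. Grin2b is known to dominate early in development and Grin2a to gain on it as the cortex matures.

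Compared between hemispheres, the glutamate genes were lower on the infarcted side at 7 d, and this difference was smaller or turned at later times. Each state has 1 library a side, so these are values without a test. At 7 d without LEV, 30 of 31 were lower, with a median log2 difference of -0.26 on the log2(CPM + 1) scale, while 56.4% of all 16221 genes were lower and their median was -0.05. At 7 d with LEV, 29 of 31 were lower (median -0.22, all genes 0.02), against 47.4% of all genes. At 1 m with LEV, 24 were lower (median -0.05, all genes -0.0002), against 50.1% of all genes. At 1 m without LEV, 18 were lower (median -0.06, all genes 0.05), against 41.3% of all genes. At 2 m, 10 were lower (median 0.13, all genes 0.06), against 40.9% of all genes. The 8 pan-neuronal markers were also lowest at 7 d and above 0 at 2 m, with medians of -0.36 at 7 d with LEV, -0.46 at 7 d, -0.12 at 1 m with LEV, -0.09 at 1 m and 0.27 at 2 m. Microglial markers were higher on the infarcted side in all 5 states, with medians of 1.33, 1.33, 0.49, 0.65 and 0.56 in that order of states, and their summed level was 528.1 to 1355 CPM there against 318.7 to 384.8 CPM on the other side. The part of cell make-up in the glutamate genes' difference was not tested.

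**Figure D1:**
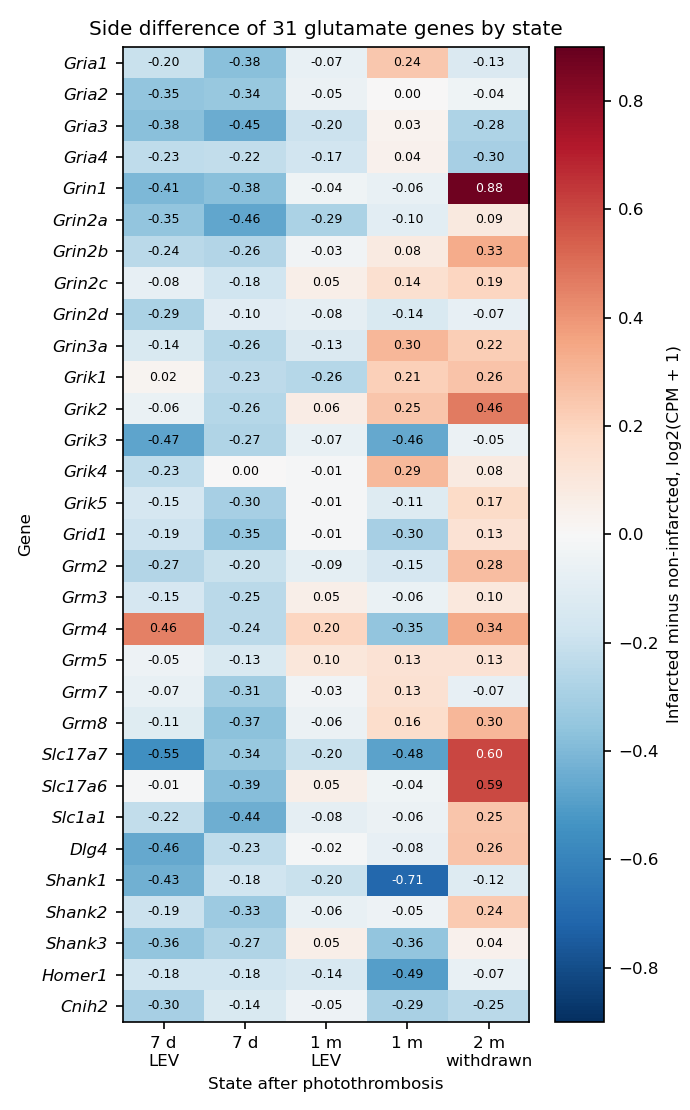
Each cell gives the infarcted minus the non-infarcted value of log2(CPM + 1) for 1 of the 31 genes (vertical axis) in 1 of the 5 states (horizontal axis), with 1 library a side; red is higher and blue lower on the infarcted side. The 2 columns at 7 d are almost wholly blue, while the 2 m column holds the largest red value, Grin1 at 0.88.

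Over the 5 states taken as repeats, limma called 0 of the 31 genes at adjusted p below 0.05 (Benjamini-Hochberg over 16229 genes), where 7.0% of all genes were called, 1008 higher and 128 lower. The split was 800 and 269 with TMM scaling and 878 and 393 after centring each library on its median gene. Of the 31, 7 (22.6%) had an unadjusted p below 0.05, all of them lower, a share near that of all genes (23.3%), and edgeR also called 0. The smallest p belonged to Shank1, a scaffold at the core of excitatory synapses. On the infarcted side its level was 176.5 CPM (with LEV) and 149.7 CPM (without) at 7 d, 164.2 and 154.7 CPM at 1 m, and 205.5 CPM at 2 m, against 238.5, 169.4, 189.1, 252.8 and 222.9 CPM on the other side in the same order. Each infarcted library lay below its partner, although the 2 groups overlap. The log2 difference was -0.33 (standard error 0.09, limma adjusted p = 0.0601). Gria3, an AMPA subunit gene on the X chromosome, differed by -0.25 (standard error 0.08, limma adjusted p = 0.0839), with 211.0 to 251.5 CPM (median 242.3) on the infarcted side and 242.2 to 326.7 CPM (median 287.8) on the other.

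Leaving out the 2 m libraries gave 3 calls, all lower on the infarcted side: Grin2a (-0.30), Slc17a7 (-0.39) and Shank1 (-0.38). Of all genes 7.94% were then called, 1.24% lower. TMM scaling called Gria3, and median centring called Gria3 and Shank1, where 1.66% and 2.42% of all genes were called lower. Grin2d, Grik3, Shank1, Homer1 and Cnih2 were lower on the infarcted side in all 5 states, 5 of 31 genes (16.1%) against 7.84% of all genes. None of the 31 was higher in all 5, against 14.7% of all genes. Of a list of 19 auxiliary receptor subunits, which control the trafficking and gating of glutamate receptors, 0 were called higher and 2 lower. They were Cacng2, which encodes stargazin, at -0.29 (limma adjusted p = 0.0342) and Nptx1, a secreted pentraxin that clusters AMPA receptors, at -0.31 (limma adjusted p = 0.0471). No gene of the lists of other scaffolds (22 genes) or of glutamate uptake and synthesis (13 genes) was called.

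The ratio of Grin2b to Grin2a tags, taken within each library and chosen after its values were seen, was higher on the infarcted side in all 5 states. The ratio was 2.14 and 2.08 on the infarcted side at 7 d with and without LEV, 1.91 and 1.69 at 1 m with and without LEV, and 1.57 at 2 m. On the non-infarcted side it was 1.98, 1.81, 1.60, 1.49 and 1.33 in the same order, and 1.46 in the naive library. Within each side the 7 d libraries had the highest ratios and the 2 m library the lowest. The mean log2 difference between sides was 0.20 ± 0.06 (SD, n = 5 states). The exact two-sided sign-flip permutation p was 0.0625, the smallest that 5 states can give, and 0.188 after Benjamini-Hochberg adjustment over 3 ratios. Because the ratio was chosen after its values were seen, this p cannot serve as a test of it. The adjustment does not cover other pairs of genes that could have been chosen. The other 2 ratios were Gria2 to Gria1 (mean log2 difference -0.05 ± 0.14, SD, n = 5, exact permutation p = 0.5) and Slc17a7 to Slc17a6 (-0.24 ± 0.26, SD, n = 5, exact permutation p = 0.188).

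**Figure D2:**
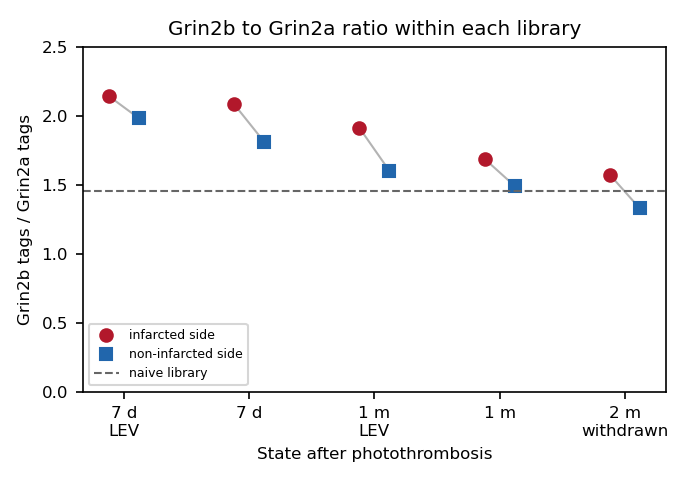
The vertical axis is the ratio of Grin2b to Grin2a tags within a library and the horizontal axis the state, with red circles for infarcted libraries, blue squares for non-infarcted libraries, a grey line joining the 2 sides of a state and a dashed line for the naive library at 1.46. The circle lies above the square in each of the 5 states, and the values at 7 d lie above those at 2 m.

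Each side was then set against naive cortex, and both comparisons share the 1 naive library. None of the 31 genes was called on either side. On the infarcted side 0 of 31 were called by limma (0.00611% of all genes were), with 0 at an unadjusted p below 0.05 (3.81% of all genes), 0 by edgeR and a median log2 difference of -0.06 against 0.03 over all genes. On the non-infarcted side 0 of 31 were called by limma (0.0% of all genes), with 0 at an unadjusted p below 0.05 (0.945% of all genes), 0 by edgeR and a median of 0.02 against 0.00 over all genes. As single libraries, the infarcted side at 7 d without LEV stood furthest below naive cortex: 28 of 31 genes were lower, as were 51.9% of all genes, and 7 of the 31 by more than 1.5-fold, a size that 7.68% of all genes passed in that direction. In that library the markers differed from naive cortex by medians of -0.34 (pan-neuronal), -0.24 (excitatory), -0.57 (inhibitory), 0.79 (astrocyte) and 1.49 (microglial), and their part was not tested. The 7 genes were Grin1, Grin2a, Grik3, Grid1, Grm2, Slc17a7 and Cnih2. Cnih2 was 167.7 CPM in that library and 308.1 CPM in naive cortex, a ratio of 0.544 (exact 95% interval 0.518 to 0.571, which covers counting error only).

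Between the times, 4 glutamate genes were called higher at 1 m than at 7 d on both sides: Slc17a7, Cnih2, Grid1 and Grik3. Grik3 was not called on the non-infarcted side with TMM or without the expression limit. How large a share of all genes was called higher on both sides was not computed, so 4 of 31 has no share to be set against. For the infarcted side, 6 of 31 genes passed in limma, all higher, where 16.7% of 16399 genes were called and 5.27% were called higher. On the non-infarcted side it called 4 higher and 1 lower, where 12.4% of 15931 genes were called, 5.98% higher and 6.45% lower. The median log2 difference of the 31 genes was 0.14 on the infarcted side (all genes -0.04) and -0.02 on the other (all genes -0.06). These tests leave 1 residual degree of freedom and take most of their spread from other genes (prior degrees of freedom of 45.3 for infarcted and 13.9 for non-infarcted libraries). Over all genes the infarcted side had 864 calls of higher and 1868 of lower level, and 1230 and 1418 after median centring. On the other side it was 952 and 1027, against 930 and 370 with TMM and 1175 and 749 after median centring.

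Markers of other cell types also differed between the times. On the infarcted side 7 of 8 striatal markers were called higher at 1 m (median log2 difference 0.47), as were 3 of 7 inhibitory neuron markers (0.37), while 5 of 6 microglial markers (-1.02) and 3 of 6 astrocyte markers (-0.42) were called lower. The summed striatal level there was 992.5 and 857.2 CPM at 1 m with and without LEV, against 817.2 and 551.0 CPM at 7 d, and the microglial sum was 528.1 and 528.9 CPM against 1282 and 1355 CPM. In the non-infarcted libraries 1 of 8 striatal markers was called higher (median -0.06), 1 of 7 inhibitory (0.07) higher, 1 of 6 microglial (-0.17) lower and 2 of 6 astrocyte (-0.22) lower. Of the 9 excitatory and 8 pan-neuronal markers 0 were called on the infarcted side (medians -0.01 and 0.06), and 1 of each list was called lower on the other (-0.27 and -0.25). The part of these cells in the differences of the glutamate genes was not tested.

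Cnih2, a cornichon protein that slows the closing of AMPA receptors, had 262.2 CPM (with LEV) and 283.5 CPM (without) at 1 m on the infarcted side, against 181.7 and 167.7 CPM at 7 d. On the non-infarcted side it had 271.2 and 347.2 CPM at 1 m, against 223.3 and 184.6 CPM at 7 d. All 4 libraries at 1 m lay above all 4 at 7 d, and the naive library (308.1 CPM) and those at 2 m (305.7 CPM on the infarcted and 362.5 CPM on the other side) were at the 1 m level or above. The log2 difference was 0.64 (standard error 0.14, limma adjusted p = 0.000563) on the infarcted side and 0.59 (standard error 0.17, limma adjusted p = 0.0312) on the other.

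Grid1, which encodes the delta receptor subunit GluD1, a synapse organiser, had 61.2 and 49.1 CPM at 1 m with and without LEV on the infarcted side, against 39.5 and 29.4 CPM at 7 d. It had 61.5 and 60.7 CPM at 1 m on the other side, against 45.2 and 37.6 CPM at 7 d. The groups do not overlap. The log2 difference was 0.67 (standard error 0.15, limma adjusted p = 0.000717) and 0.56 (standard error 0.14, limma adjusted p = 0.0204). Grik3, a kainate receptor subunit, had 37.7 and 35.9 CPM at 1 m with and without LEV on the infarcted side, against 25.0 and 20.9 CPM at 7 d, and 39.5 and 49.7 CPM at 1 m on the other side, against 35.0 and 25.5 CPM at 7 d. Its values also did not overlap between the times, though 35.9 CPM at 1 m and 35.0 CPM at 7 d came from different sides and are close. Its log2 difference was 0.66 (limma adjusted p = 0.00175) on the infarcted and 0.55 (limma adjusted p = 0.0484) on the other side.

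Slc17a7 had 1516 and 615.1 CPM at 1 m with and without LEV on the infarcted side, against 543.1 and 481.0 CPM at 7 d. On the non-infarcted side it had 1738 and 861.3 CPM at 1 m, against 797.5 and 609.5 CPM at 7 d. On each side both libraries at 1 m lay above both at 7 d, and the 2 with LEV stood far above all others. The log2 difference was 0.92 (standard error 0.17, limma adjusted p = 9.44e-05) and 0.81 (standard error 0.19, limma adjusted p = 0.0125). Within the libraries without LEV the ratio of 1 m to 7 d was 1.28 on the infarcted and 1.41 on the other side, while with LEV it was 2.79 (exact 95% interval 2.73 to 2.86) on the infarcted side and 2.18 (2.14 to 2.22) on the other. In a model without the LEV term Slc17a7 was no longer called on either side, nor were Grik2 and Shank3 on the infarcted side and Grik3 on the other.

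**Figure D3:**
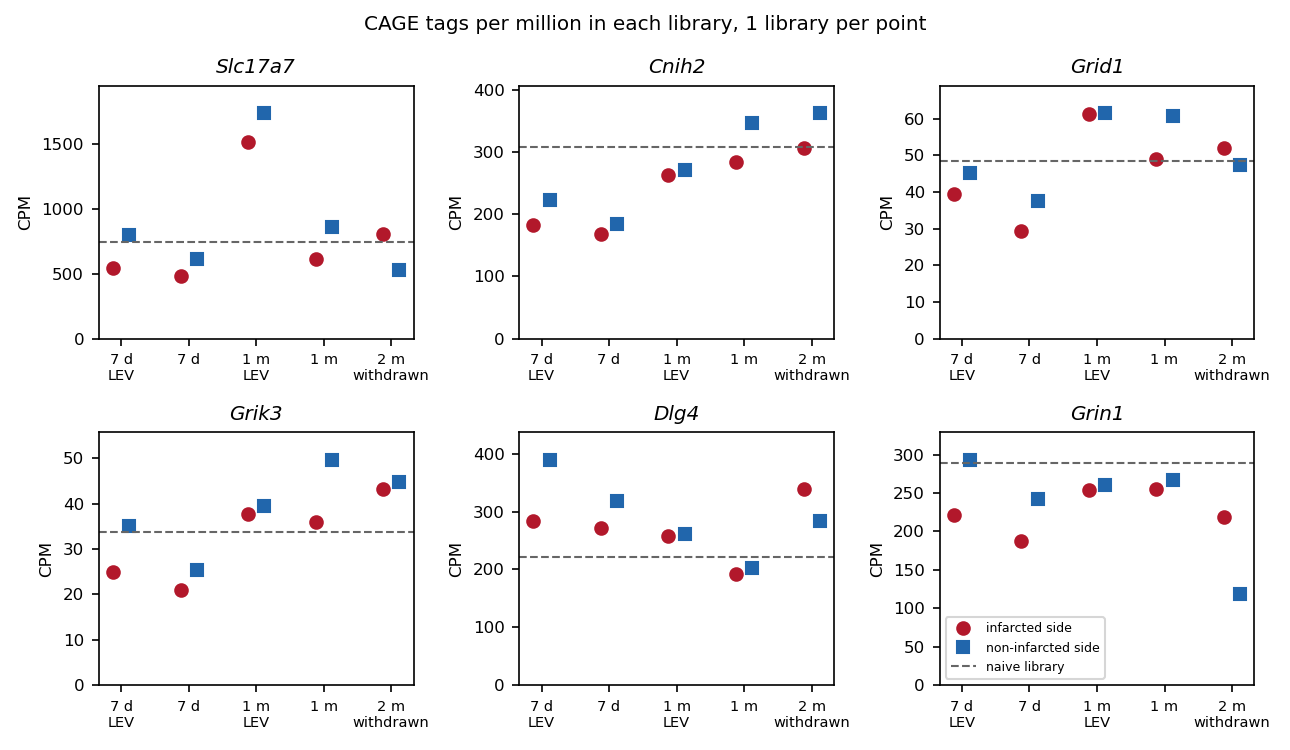
The vertical axis of each panel is CPM from 0 and the horizontal axis the 5 states, for 6 genes; red circles are infarcted libraries, blue squares non-infarcted libraries and the dashed line the naive library. Slc17a7 peaks in the 2 libraries at 1 m with LEV, Cnih2, Grid1 and Grik3 are lower at 7 d, Dlg4 is higher at 7 d than at 1 m, and Grin1 is low in the non-infarcted library at 2 m.

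Grik2, the most abundant low-affinity kainate subunit, was called on the infarcted side (0.52, standard error 0.14, limma adjusted p = 0.00712), with 77.3 and 61.0 CPM at 1 m with and without LEV against 50.6 and 44.7 CPM at 7 d. On the other side it had 73.9 and 51.1 CPM at 1 m against 52.8 and 53.7 CPM at 7 d, a difference of 0.20 (limma adjusted p = 0.433). Shank3, a scaffold whose loss is a known cause of autism in humans, was called on the infarcted side at 0.41 (standard error 0.14, limma adjusted p = 0.0303), with 116.3 and 95.8 CPM at 1 m against 84.6 and 73.8 CPM at 7 d. On the other side Shank3 had 112.3 and 123.0 CPM at 1 m with and without LEV, against 108.5 and 89.1 CPM at 7 d, and was not called. Dlg4, which encodes PSD-95, the main scaffold of the postsynaptic density, ran the other way. It had 261.4 and 203.2 CPM at 1 m with and without LEV on the non-infarcted side, against 390.1 and 318.6 CPM at 7 d, a log2 difference of -0.61 (standard error 0.15, limma adjusted p = 0.0151). On the infarcted side it had 258.1 and 192.8 CPM at 1 m, against 283.8 and 272.3 CPM at 7 d, at -0.32 (limma adjusted p = 0.124). The naive level was 222.2 CPM, within the 1 m range, and at 2 m Dlg4 stood at 339.8 CPM on the infarcted and 283.7 CPM on the other side.

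Over both sides, 5 genes had all 4 libraries at 1 m above the 4 at 7 d (Cnih2, Grid1, Grik3, Grin2c and Grm5, 5 of 31 where 8.61% of all genes did). Dlg4 alone among the 31 had all 4 below, which 13.4% of all genes did. Grin2c, an NMDA subunit known from cerebellar granule cells and astrocytes, had 34.4 to 39.4 CPM at 1 m against 28.2 to 32.6 CPM at 7 d and was not called (limma adjusted p = 0.142 on the infarcted side, log2 difference 0.33). Grm5, the postsynaptic metabotropic receptor that Homer1 tethers, had 96.8 to 112 CPM at 1 m against 80.9 to 95.2 CPM at 7 d (log2 difference 0.33, limma adjusted p = 0.0928 on the infarcted side).

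The AMPA subunits were not called on either side. Gria1 differed by 0.06 on the infarcted side, and Gria2 and Gria3 by less than 0.01 in size. On the other side Gria1, Gria2 and Gria3 differed by -0.32, -0.32 and -0.33. The difference between the sides was tested directly, with 1 residual degree of freedom and prior degrees of freedom of 64.4. This difference was positive for 28 of 31 genes, with a median of 0.21 against 0.03 over all genes. Of the 31, 0 were called by limma (5.47% of all genes were). An unadjusted p below 0.05 was reached by 7 of 31 (22.6%) and by 16.0% of all genes. The smallest p belonged to Gria1, at 0.38 (standard error 0.13, limma adjusted p = 0.0709). The 8 pan-neuronal markers were positive in the same test for 8 of 8 genes, with a median of 0.29 and 0 calls.

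The remaining receptors passed no call on either side, though with median centring Grin1, Grm2 and Grm5, and with TMM Grm2, were called higher on the infarcted side. Among the metabotropic receptors, Grm2, a presynaptic autoreceptor, had 26.2 to 32.0 CPM at 1 m and 18.9 to 27.8 CPM at 7 d, with a log2 difference of 0.41 (limma adjusted p = 0.0762) on the infarcted and 0.30 (0.196) on the other side. Its relative Grm3, which astrocytes also express, had 101.3 to 111.7 CPM at 1 m and 105.8 to 126.5 CPM at 7 d, at -0.05 and -0.24. The presynaptic receptors Grm4, Grm7 and Grm8 differed by 0.12, 0.18 and 0.28 on the infarcted side and by 0.31, -0.06 and -0.01 on the other. Among the other kainate subunits, Grik1, Grik4 and Grik5 differed by -0.02, 0.08 and -0.11 on the infarcted side and by -0.10, -0.17 and -0.27 on the other. Slc1a1, the neuronal uptake transporter EAAC1, had 74.5 to 88.5 CPM at 1 m and 67.2 to 91.4 CPM at 7 d, so the times overlap.

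**Figure D4:**
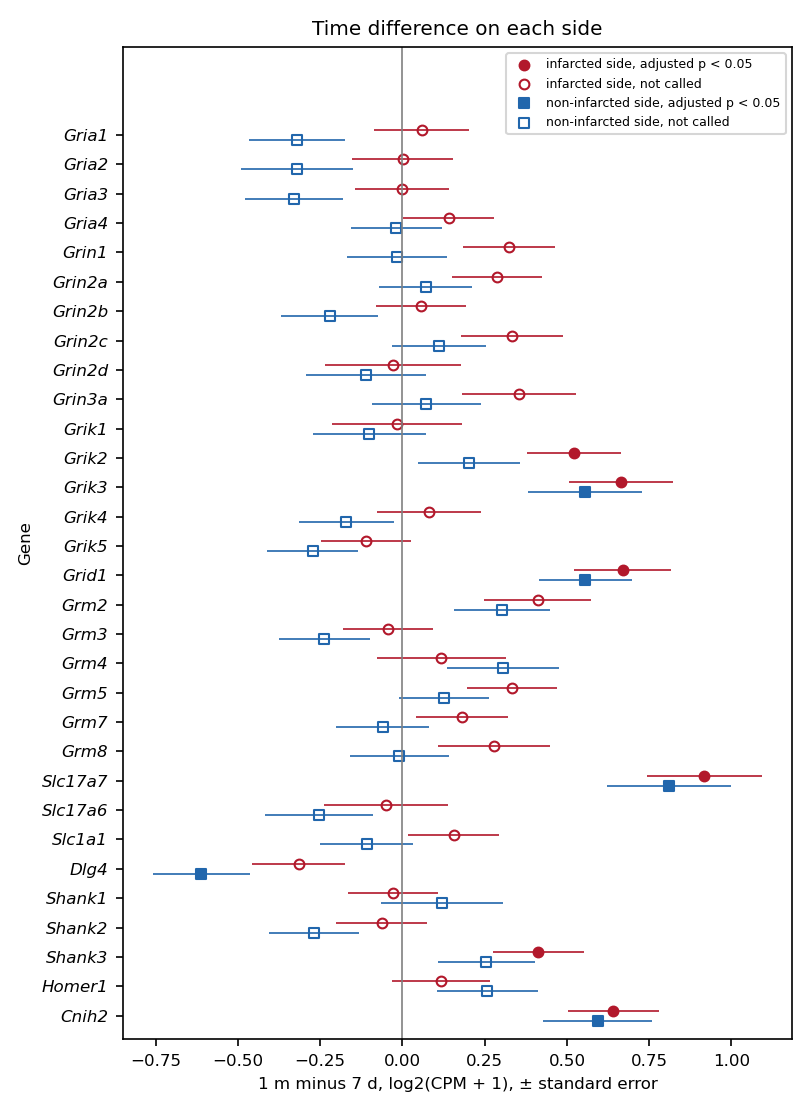
The horizontal axis is the difference 1 m minus 7 d in log2(CPM + 1) with its standard error, and the vertical axis lists the 31 genes; red circles are the infarcted side and blue squares the non-infarcted side, filled where limma's adjusted p is below 0.05. Slc17a7, Cnih2, Grid1 and Grik3 are filled on both sides, and Dlg4 is the only gene filled to the left of 0.

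Of the 19 auxiliary subunit genes, 5 were called higher at 1 m on the infarcted side and 0 lower, and 3 were called higher and 1 lower on the other. Cnih3, the closest relative of Cnih2, differed by 0.73 (limma adjusted p = 0.00022) and 0.51 (0.0325). Frrs1l, an assembly factor of AMPA receptors, differed by 0.57 (0.00189) and 0.84 (0.00313), and Olfm1, a secreted AMPA receptor partner, by 0.51 (0.0205) and 0.64 (0.0271). Cacng8, an auxiliary subunit of the stargazin family, was lower on the non-infarcted side at -0.54 (0.0206), and its time difference was unlike between sides (0.52, limma adjusted p = 0.0289). The test of the sides leaves 1 residual degree of freedom.

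Of the 13 genes of uptake and synthesis, 1 was called higher at 1 m on each side, and 0 were called lower on the infarcted side and 2 on the other. Slc1a3, the astrocyte transporter GLAST, which is also an astrocyte marker, was lower at -0.61 (limma adjusted p = 0.0141), as was Got1 at -0.51 (0.0306). Of 22 other scaffold and signalling genes, 2 were higher on the infarcted side and 1 lower, and on the other 4 were higher and 1 lower. Dlg3, a relative of PSD-95, was higher by 0.60 on both, while the activity-regulated gene Arc was lower by -0.44 (limma adjusted p = 0.0258) and -0.68 (0.0143).

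In the comparison of LEV with no LEV, Slc17a7 was the only glutamate gene called, on the infarcted side, and 6 of 7 alternatives lost the call. That is 1 of 31 genes in limma, where 0.518% of all genes were called (85 of 16399). Calls over all genes fell too, to 28 with a pseudocount of 0.25, 11 without the expression limit and 0 with TMM. They were 12 after median centring, 17 in edgeR, 0 without the time term and 209 among genes of at least 5 CPM. Slc17a7 had 543.1 CPM with LEV and 481.0 CPM without at 7 d, and 1516 CPM with LEV and 615.1 CPM without at 1 m. The library at 1 m with LEV stood apart and the 7 d pair was close. Like the time tests, the LEV tests on each side leave 1 residual degree of freedom and take most of their spread from other genes. Their prior degrees of freedom were 45.3 for infarcted and 13.9 for non-infarcted libraries. The log2 difference of Slc17a7 over both times was 0.74 (standard error 0.17, limma adjusted p = 0.0292). The adjusted p was 0.149 with a pseudocount of 0.25, 0.230 with no limit on expression, 0.473 with TMM, 0.284 after median centring, 0.238 in edgeR and 1.0 without the time term, and 0.00081 among genes of at least 5 CPM.

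On the non-infarcted side limma called 0 of 31 genes, where 0.00628% of all genes were called, edgeR called 0, and 3 of 31 (9.68%) had an unadjusted p below 0.05, as had 5.01% of all genes. Slc17a7 had 797.5 CPM with LEV and 609.5 CPM without at 7 d, and 1738 CPM with LEV and 861.3 CPM without at 1 m. Its log2 difference was 0.70 (standard error 0.19, limma adjusted p = 0.963). The test of the difference between sides called 0 of the 31 (0.173% of all genes), with 1 of 31 (3.23%) at an unadjusted p below 0.05 and 3.32% of all genes. That test also leaves 1 residual degree of freedom, with prior degrees of freedom of 64.4. The ratio of LEV to no LEV at 1 m was 2.47 (exact 95% interval 2.41 to 2.53) on the infarcted and 2.02 (1.98 to 2.06) on the other side, and at 7 d it was 1.13 and 1.31. These intervals compare 2 libraries and cover counting error only.

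The test of whether the LEV difference is unlike at 1 m and 7 d, over both sides, called 0 of the 31 genes in limma (0.0246% of all genes, 4 of 16228) and 0 in edgeR, with 6 of 31 (19.4%) at an unadjusted p below 0.05 and 13.7% of all genes. This test took the infarcted and non-infarcted libraries of a state as repeats. Its 3 residual degrees of freedom reflect only how the side difference varied between states. Spread between separate groups of mice in the same state was not measured, so the p-values do not cover it. Slc17a7 had the smallest p, at 0.88 (standard error 0.15, limma adjusted p = 0.126). Homer1, the scaffold that links metabotropic receptors to internal calcium stores, followed at 0.67 (standard error 0.15, limma adjusted p = 0.182). It had 104.1 CPM with LEV and 130.4 CPM without at 7 d on the infarcted side and 117.7 and 147.5 CPM on the other, and 151.9 CPM with LEV and 105.2 CPM without at 1 m on the infarcted side and 167.8 and 148.4 CPM on the other. It was lower with LEV in both pairs at 7 d and higher in both at 1 m.

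As a list, excitatory markers moved less than Slc17a7 in the same libraries. Their median log2 difference at 1 m was 0.05 on the infarcted and 0.16 on the other side, with 3 and 2 of 9 lower with LEV. Rorb, of the same list, had 66.2 CPM with LEV and 36.2 CPM without on the infarcted side, and 68.6 and 39.8 CPM on the other. The summed level of the 9 markers at 1 m was 2592 CPM with LEV and 2094 CPM without on the infarcted side. On the other side it was 2914 and 2716 CPM. Most of this sum is Nrgn, at 2084 and 1641 CPM on the infarcted and 2329 and 2214 CPM on the other side. For LEV, 0 of 9 were called on either side. The summed pan-neuronal level was 4688 CPM with LEV and 4835 CPM without on the infarcted side, and 5277 and 5233 CPM on the other. Markers of the striatum, which adjoins the cortex, were higher with LEV on the infarcted side, with a sum of 992.5 CPM with LEV and 857.2 CPM without at 1 m, and 817.2 and 551.0 CPM at 7 d. On the other side the sum was lower with LEV, at 588.7 and 736.9 CPM at 1 m and 621.7 and 742.4 CPM at 7 d, and 7 of 8 striatal markers were called for the difference between sides. The part of tissue taken with the cortex in these results was not tested.

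As single libraries, members more than 1.5-fold apart with LEV were few. At 1 m Slc17a7 was the only one on the infarcted side, and Slc17a7 and Grin3a, a subunit that lowers the calcium entry of NMDA receptors, were the 2 on the other side, where 4.59% and 4.56% of all genes were that much higher. Grin3a had 23.2 CPM with LEV and 14.7 CPM without, a ratio of 1.58 (exact 95% interval 1.34 to 1.88). At 7 d no member passed 1.5-fold on the infarcted side, where 2.62% of all genes were that much higher and 1.73% lower, or on the other side, where 2.13% and 3.46% were. At that time 29 of 31 were higher with LEV on the infarcted side (all genes 64.4%) and 24 of 31 on the other (all genes 48.0%).

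The comparison of 2 m after LEV withdrawal with 1 m with LEV has 1 library a group and no test, and time and withdrawal cannot be told apart. On the infarcted side Slc17a7 had 806.3 CPM after withdrawal and 1516 CPM before it, a ratio of 0.532 (exact 95% interval 0.521 to 0.543). On the other side it was 530.6 and 1738 CPM, a ratio of 0.305 (0.298 to 0.312). Both values at 2 m lie within 481.0 to 861.3 CPM, the range over the naive library, the 4 libraries at 7 d and the 2 at 1 m without LEV. Gria1, the AMPA subunit most tied to synaptic strengthening, was higher at 2 m on both sides, at 353.4 CPM against 234.3 CPM at 1 m with LEV on the infarcted side (ratio 1.51) and 386.5 against 245.6 CPM on the other (ratio 1.57). Its 2 values at 2 m were the highest of the 11 libraries. More than 1.5-fold higher were 2 of 31 genes on the infarcted side (Gria1 and Grik1, where 15.0% of all genes were) and 1 on the other (Gria1, 12.9%). More than 1.5-fold lower were 1 on the infarcted side (Slc17a7, 6.48%) and 3 on the other (Slc17a7, Grin1 and Grik2, 10.9%).

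Grin1, the subunit every NMDA receptor needs, had 218.2 CPM on the infarcted and 118.5 CPM on the non-infarcted side at 2 m, a ratio of 1.84 (exact 95% interval 1.74 to 1.95). It was 186.8 to 293.5 CPM in the other 9 libraries, including 289.0 CPM in naive cortex. The non-infarcted library at 2 m alone was below that range. That library was also the lowest for Rorb, a marker of layer 4 neurons, at 9.96 CPM against 36.2 to 71.3 CPM in the others. It was the lowest too for Cacng8, at 18.3 CPM against 34.4 to 63.2 CPM. Both genes were chosen after their values were seen. Against naive cortex, 5 of the 9 excitatory markers were lower in this library (median log2 difference -0.22). Tbr1 (68.3 against 65.0 CPM), Cux2 (46.6 against 45.3), Neurod6 (38.2 against 31.2) and Nrgn (2431 against 2125) were higher. Of the excitatory markers 7 of 9, and of the pan-neuronal markers 7 of 8, were higher in the infarcted than in the non-infarcted library at 2 m (median log2 differences 0.20 and 0.27). The pan-neuronal sum was 5972 CPM on the infarcted and 5193 CPM on the other side. The excitatory sum went the other way, at 2781 CPM on the infarcted and 2865 CPM on the other side, with Nrgn at 2242 and 2431 CPM. Of the tags of the non-infarcted library at 2 m, 92.3% lay in the listed genes, the lowest share, against 94.2% to 97.3% in the others. What sets this library apart was not tested.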

How the data were processed

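Per the labels, 11 CAGE libraries of mouse whole cortex, 1 per group, were deposited as CPM (tags scaled to each library's total). GRCm38, HISAT2 2.0.5, BWA 0.7.17 and DESeq2 1.20.0 stand in the submitters' processing notes with no role. Every value is a whole number of tags within 0.01 tag (100.0% of values), so tags were recovered. Identifiers were matched to GENCODE M21 (22335 of 22377, 99.8%). No member shares tags with a neighbour within 5 kb to within 5%.

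Genes with a mean of at least 1 CPM in the compared libraries were tested on log2(CPM + 1), whose pseudocount understates changes of low genes, with limma 3.58.1 (R 4.3.3, mean-variance trend, Benjamini-Hochberg over all genes tested, call at 0.05). All 31 members passed this limit in every comparison. The side test has state as a factor, the time and LEV tests both factors, and the interaction test side, time and LEV. The naive library is assumed to vary like the others. Alternatives were a pseudocount of 0.25, no limit, a mean of at least 5 CPM, TMM, median centring, leaving out libraries or states, omitting a second factor, and edgeR 4.0.16 on the tags. Single libraries were compared by ratios with exact 95% intervals on tags. Members, pathway lists and marker lists were chosen with earlier results of these data known. All members are named, and of each pathway list and comparison at most the 4 called genes with the smallest p. The higher calls of the uptake and synthesis list are counted, but not reported here by name. The tests were checked on simulated data. Python 3.11.15, scipy 1.17.1, numpy 2.4.6, pandas 2.3.3 and matplotlib 3.10.9 were used.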

Additional observations from a re-analysis of the deposited data

Results flagged for a closer look

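Each of the 31 genes has 5 side differences. On these, the gap rule for a single extreme value (Dixon, critical value 0.71 for 5 values) picked 2 genes. Chance alone picks about 1 in 20, so 2 of 31 is near what chance gives. The share that the rule picks over all genes was not computed. Grin1 passed narrowly, at 0.711, and Homer1 passed at 0.741. For Grin1 the state 2 m stood above the other states, with a log2 difference of 0.88 between the infarcted and the non-infarcted side, against -0.41 to -0.04 in the other 4 states. For Homer1 the state 1 m without LEV stood below the others, at -0.49 against -0.18 to -0.07. The 5 values are single libraries on each side.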

How the results depend on the processing

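Of 2728 gene results under the alternatives, 2705 stayed on their side of the threshold, 10 gained a call and 13 lost one. The sign changed in 144 results, of which 0 were called in either setting, and their log2 differences as reported were at most 0.22 in size. For the side, the count of 0 became 1 with TMM and 2 after median centring, and 0 to 3 when a state was left out (3 without 2 m). Of all genes 6.59% were called with TMM, 7.83% after median centring and 0.437% to 7.94% with a state left out. For 1 m against 7 d, the 6 calls on the infarcted side became 3 and the 5 on the other side became 3 without the LEV term. Of all genes 9.43% and 11.2% were then called. With TMM the 6 became 7 and the 5 became 4, where 14.4% and 8.16% of all genes were called. After median centring the 6 became 9 (16.1% of all genes), and without the limit the 5 became 4 (7.51%). Grik3 was the call lost on the non-infarcted side with TMM and without the limit. For LEV on the infarcted side the 1 call became 0 with a pseudocount of 0.25, without the limit, with TMM, with median centring, in edgeR and without the time term. The 85 calls over all genes fell to between 0 and 28 in these settings. The cause was not tested, except that dropping a factor moves its difference into the spread. The side test pairs the 2 sides of each state, and without the state term it called 0 members and 245 of all genes, in place of 1136. The time and LEV tests of the difference between sides also pair the 2 sides of each state. In the time by LEV test, the terms for side, time, LEV and their interaction set apart each state, so the 2 sides of a state are compared within it. In the remaining comparisons each group has 1 library and the labels link no library to another, so no paired analysis was possible. Leaving out a library from the time and LEV fits on 1 side leaves no residual degree of freedom and was not run. With 12928291 to 21000367 tags a library, counting error is small for most members, and the number of libraries limits precision.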
